A study of Mus musculus with 3 samples.

Results

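Iron balance in the body is set by hepcidin, a small peptide hormone that hepatocytes secrete. Hepcidin binds the iron exporter ferroportin and has it degraded, so that less iron leaves gut cells, macrophages and hepatocytes. Hepatocytes adjust hepcidin transcription to iron in the blood through transferrin receptors, HFE and the BMP-SMAD pathway, and to inflammation through IL-6 and STAT3. The genes described here are 10 listed symbols of this system: the hormone genes Hamp and Hamp2, the sensors and receptors Tfr2, Tfrc and Hfe, the exporter Slc40a1, the iron carrier Tf, the ferritin subunits Fth1 and Ftl1, and the BMP-SMAD inhibitor Smad7. They are 10 of 32285 features in each matrix. Of the symbols, 9 stood in the feature lists as given, and transferrin was listed as Trf, for which RefSeq gives Tf as a synonym. Summed over hepatocyte-like cells of the libraries, all 10 reached 100 UMIs, as did 7665 genes in all, which are called measured below.

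The counts came from primary hepatocytes of wild-type (WT) mice, profiled by droplet single-cell RNA sequencing in which each captured molecule carries a unique molecular identifier (UMI) read near the 3′ end. One group of mice was fed a normal diet (ND), another a 60% high fat diet (HFD), and the last that high fat diet with 0.25% hyodeoxycholic acid (HDCA), a secondary bile acid, which is written HFD_HDCA. Diets lasted 12 weeks, and cells were released by collagenase digestion. Each group is 1 library, so no difference between diets has a replicate check and no p-value was computed. Every interval is a 95% interval for counting error only. The sources used here do not give the number, age or sex of the animals behind a library, or the hour of isolation. The diets cannot be told apart from whatever else differed between the 3 libraries.

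The matrices held 5755 barcodes in ND, 6290 in HFD and 4873 in HFD_HDCA, with median mitochondrial counts of 61.1%, 63.1% and 14.5%. HFD_HDCA thus differed from the other libraries in this quality measure as well as in diet. Barcodes that passed the limits of 200 genes (minimum) and 50% mitochondrial counts (maximum) numbered 2776 in ND, 2898 in HFD and 3000 in HFD_HDCA. Of these, 2648, 2836 and 2919 fell in hepatocyte-like clusters, with median depths of 944, 884 and 1127 UMIs. Of 14 hepatocyte markers, 13 (HFD) or 14 had a UMI in 10% or more of a library's hepatocyte-like cells. The endothelial-like, Kupffer-like and unnamed clusters also had 13 of the 14 at that share. Detection of these markers therefore does not separate hepatocytes from other cells here. The libraries shared 1 to 5 retained barcodes per pair. Most hepatocyte-like clusters held cells of mainly 1 library. Within the hepatocyte-like cells, summed levels of 16 endothelial markers were 5.25 to 13.5 UMIs per 1000000 nuclear-encoded UMIs (CPM), and those of 13 Kupffer cell and macrophage markers were 3.25 to 7.35 CPM. Cholangiocyte markers summed to 63.7 to 153.7 CPM with Krt19, Krt7, Epcam and Cldn4 at 0, erythroid markers to 85.5 to 279.5 CPM, and stellate, lymphocyte, neutrophil and dendritic markers to at most 8.19 CPM each.

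Hamp lies on mouse chromosome 7 at 30942368 to 30944032 on the minus strand of GRCm38, and its neighbouring copy Hamp2 at 30922372 to 30924681 on that strand, by GENCODE M21. Their RefSeq start sites are 19848 bases apart. The longest transcripts, of 410 and 437 bases, were identical at 94.6% of aligned bases, with a longest shared run of 87 bases. How reads that match both copies were assigned is not given in the sources used here, so the division of counts between Hamp and Hamp2 is uncertain. A long noncoding gene on the opposite strand, Gm44662, overlaps both and had 0 UMIs in hepatocyte-like cells of every library.

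The sequences upstream of the RefSeq start sites are shown for both copies, and their part in the levels across the diets was not tested. They are from RefSeq (GRCm38.p6, minus strand), run from 250 to 11 bases before the start, and overlap no exon in GENCODE M21. Both lie in an intron of Gm44662 on the other strand, and that of Hamp2 also in an intron of a longer Hamp2 transcript. Capitals mark GGCGCC, the core of a BMP-responsive element described in hepcidin promoters, and the STAT-type motif TTCNNNGAA. In Hamp2 the first capitals mark the 6 bases that align with GGCGCC.
Hamp chr7:30944040-30944279: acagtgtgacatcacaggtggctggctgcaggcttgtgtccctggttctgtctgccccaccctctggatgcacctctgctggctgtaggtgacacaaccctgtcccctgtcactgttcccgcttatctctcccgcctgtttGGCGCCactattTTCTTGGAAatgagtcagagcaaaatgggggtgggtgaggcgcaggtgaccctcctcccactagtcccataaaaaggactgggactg
Hamp2 chr7:30924192-30924431: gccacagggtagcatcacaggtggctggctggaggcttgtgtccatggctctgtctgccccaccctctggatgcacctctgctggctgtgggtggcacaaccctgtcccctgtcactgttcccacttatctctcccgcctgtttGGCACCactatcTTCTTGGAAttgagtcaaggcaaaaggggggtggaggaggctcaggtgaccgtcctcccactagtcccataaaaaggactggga

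Over the 250 bases before the start, 91.9% of aligned bases were identical between the copies. GGCGCC began 109 bases before the Hamp start and was not found in the Hamp2 window. The aligned Hamp2 bases differ by 1 substitution, G4A, counted from 1 at the 5′ end of the motif with the Hamp base first. TTCNNNGAA was found in both, 97 bases before the Hamp start and 94 before the Hamp2 start. The E-box CACGTG was in neither. Both strands were searched, and the motifs did not overlap each other. Among 32851 RefSeq promoter windows of that length, 9.59% held GGCGCC, 7.02% TTCNNNGAA and 6.02% CACGTG. These matches describe the letters of the window and not binding.

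Hamp was highest in the ND library and lowest in the HFD library. Its level over hepatocyte-like cells was 6321 CPM in ND, 2489 CPM in HFD and 3640 CPM in HFD_HDCA, from 26230, 9181 and 20811 UMIs. The 3 counting intervals did not overlap. HFD was 2.54-fold lower than ND, a log2 ratio of -1.34 (-1.38 to -1.31). HFD_HDCA was 1.46-fold higher than HFD, at 0.55 (0.51 to 0.58), and 1.74-fold lower than ND, at -0.80 (-0.82 to -0.77), so it lay between the other libraries. These comparisons share libraries and are not independent of each other.

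Hamp2 took a different order, lowest in ND and highest in HFD_HDCA. It stood at 107 CPM in ND, 219.8 CPM in HFD and 561 CPM in HFD_HDCA, from 445, 811 and 3206 UMIs. HFD was 2.05-fold higher than ND, at a log2 ratio of 1.03 (0.87 to 1.21). HFD_HDCA was 2.55-fold higher than HFD, at 1.35 (1.24 to 1.46), and 5.22-fold higher than ND, at 2.39 (2.24 to 2.53). Of the UMIs assigned to the copies together, Hamp2 made up 1.67% (1.52 to 1.83%) in ND, 8.12% (7.59 to 8.67%) in HFD and 13.4% (12.9 to 13.8%) in HFD_HDCA. Hamp and Hamp2 therefore moved in opposite directions from ND to HFD, and both were higher in HFD_HDCA than in HFD.

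For HFD against ND, 1 of the 10 genes was at least 2-fold higher (Hamp2) and 1 at least 2-fold lower (Hamp). Over all measured genes that share was 5.71%, made of 2.97% higher and 2.74% lower. For HFD_HDCA against HFD, 1 was at least 2-fold higher (Hamp2) and 0 lower, where 2.86% of measured genes were at least 2-fold apart, 1.41% higher and 1.45% lower. For HFD_HDCA against ND, Hamp2 was again the 1 gene at least 2-fold apart, beside 5.26% of measured genes, 2.77% higher and 2.49% lower. Median log2 ratios over the 10 genes were -0.13, 0.28 and -0.10 for these comparisons, and -0.04, 0.04 and 0.01 over all measured genes. The Hamp2 ratio of HFD to ND lay close to the 2-fold line. It lay below that line when each cell was weighted equally, when cells were thinned to 500 UMIs, and without cells that held a UMI of another class. The Hamp ratio of HFD to ND was -0.97 with each cell weighted equally.

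**Figure D1:**
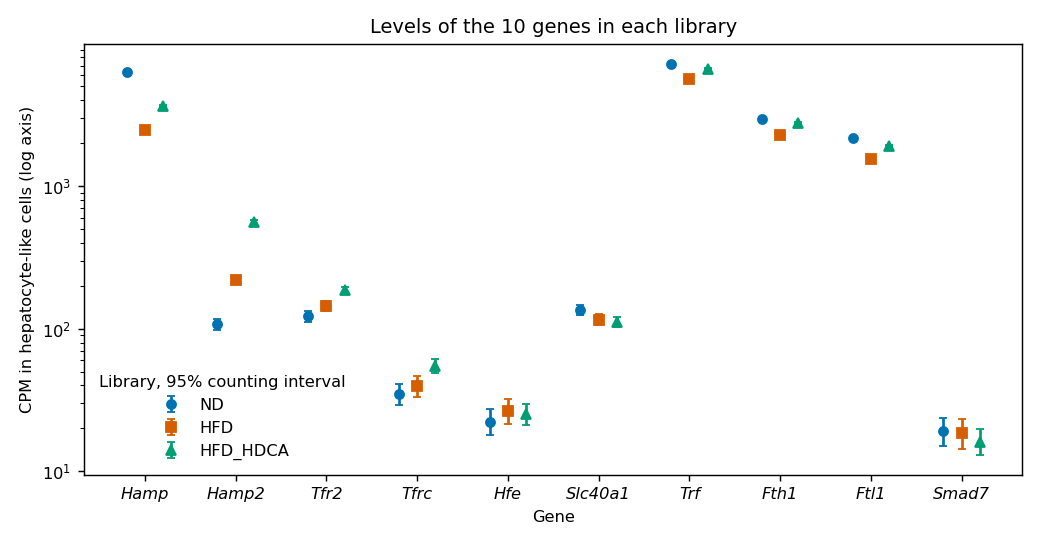
Level of each of the 10 genes in hepatocyte-like cells (CPM, log axis) in the ND, HFD and HFD_HDCA libraries, 1 library per group, with 95% Poisson counting intervals. In the order ND, HFD, HFD_HDCA, Hamp stands at 6321, 2489 and 3640 CPM, and Hamp2 at 107, 219.8 and 561 CPM.

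The level of Hamp depended on the depth of the cells in the high fat libraries. In cells with fewer than 1000 UMIs it was 6191 CPM in ND, 3850 CPM in HFD and 5358 CPM in HFD_HDCA. In cells with at least 2000 UMIs it was 6399, 1896 and 3150 CPM. The deep cells thus stood further apart, with a log2 ratio to ND of -1.76 in HFD, and of 0.73 between HFD_HDCA and HFD. Hamp2 was 106.7, 199.6 and 701 CPM in the shallow cells and 109.1, 231 and 525 CPM in the deep ones. These depth limits were chosen after seeing the data.

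Free RNA, which droplets take up regardless of the cell, was gauged in cells that should lack the hormone. Endothelial-like cells, which are not known as a source of hepcidin, had a Hamp UMI in 62.9% of 97 cells in ND, 55.6% of 18 in HFD and 62.9% of 35 in HFD_HDCA, at median depths of 986, 632.5 and 832 UMIs. Per 1000 albumin UMIs those cells held 94.7 (78.8 to 113), 144.6 (71.8 to 266) and 100.3 (69.9 to 140.2) Hamp UMIs. In hepatocyte-like cells the values were 113 (111.5 to 114.4), 55.1 (54 to 56.3) and 66.5 (65.6 to 67.4). In the HFD and HFD_HDCA libraries the endothelial-like cells therefore carried more Hamp per albumin than the hepatocyte-like cells did. The highest endothelial-like cell in ND held 20 Hamp UMIs beside a median of 1, and doublets were not separated from free RNA. The part of free RNA in the pattern by depth was not tested.

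At the level of cells, 93.4% of hepatocyte-like cells in ND, 75% in HFD and 88.4% in HFD_HDCA held a Hamp UMI. With every cell thinned to 500 UMIs the shares were 83.7% (82.2 to 85%), 55.8% (53.7 to 57.8%) and 72.7% (71 to 74.3%), with 546 shallower HFD cells left out and 0 in ND and HFD_HDCA. The endothelial-like share after the same thinning was 41.2%, 20% and 37.1%. Taken over the whole lobule, hepatocyte-like cells were above that background in each library, where the endothelial-like intervals reached 51.7%, 48.1% and 55.1%.

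Hamp2 was detected in far fewer cells. Its unthinned share was 9.37% in ND, 13.8% in HFD and 40.3% in HFD_HDCA. Thinned to 500 UMIs it was 3.97% (3.25 to 4.78%), 6.9% (5.9 to 8.02%) and 21.5% (20 to 23.1%). Endothelial-like cells had 1.03%, 0% and 11.4% at that depth, from 1 of 97, 0 of 15 and 4 of 35 cells, and 0 of 15 cells allows a share of up to 20%. The intervals of the endothelial-like shares reached 5.61%, 21.8% and 26.7%. At that depth the hepatocyte-like share of Hamp2 was thus above this endothelial-like background beyond counting error in 0 of the 3 libraries. Unthinned, the share was above it in HFD_HDCA alone, at 40.3% (38.5 to 42.1%) against 20% (8.44 to 36.9%), with deeper hepatocyte-like cells. The level in CPM was above it in ND alone, at 107 (97.5 to 117.7) against 31.2 (6.42 to 91) on 3 UMIs. None of the Kupffer-like cells held a Hamp2 UMI, 0 of 17, 0 of 18 and 0 of 25 unthinned, which allows up to 17.6%, 16.7% and 12%. Thinned to 500 UMIs, the Kupffer-like intervals reached 19.5%, 20.6% and 13.7%, so the hepatocyte-like share was above them in HFD_HDCA alone. In CPM the Kupffer-like intervals reached 197, 190.8 and 126.7. The hepatocyte-like level was above that in HFD, at 219.8 (205 to 235.5), and in HFD_HDCA, at 561 (541.5 to 580.4), but not in ND.

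In cells with at least 2000 UMIs, thinned to 2000, Hamp per cell spread widely. The 10th percentile, median and 90th percentile were 1, 9 and 24 UMIs in ND, 0, 2 and 8.7 in HFD, and 0, 4 and 14 in HFD_HDCA. The highest cells held 55, 31 and 33 UMIs. The variance was 7.73, 5.43 and 6 times the mean, where Poisson counting alone gives a ratio of 1. For Hamp2, whose median was 0 in each library, the highest cells held 14, 21 and 19 UMIs and the ratio was 3.46, 3.97 and 3.55. Single cells thus differed in both copies by more than counting noise.

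Cells with and without a Hamp2 UMI were compared for Hamp at that depth. The median of Hamp was 10 UMIs in the 73 ND cells with Hamp2 and 9 in the 621 without. It was 2 and 2 in HFD, over 158 and 666 cells, and 5 and 4 in HFD_HDCA, over 376 and 644 cells. By bin the medians went either way. They were 15 with and 5 without Hamp2 in bin 5 of ND, over 21 and 117 cells, but 7 and 10.5 in bin 3 of ND and 0 and 2 in bin 2 of HFD.

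The liver lobule is supplied at its portal side and drained at the central vein, and hepatocytes differ along that path. Cells with at least 5 landmark UMIs were ordered in each library by 8 pericentral and 8 periportal landmark genes, none of them an iron gene, and divided into 5 bins of equal cell number, from bin 1 (most periportal) to bin 5 (most pericentral). This placed 2007 ND, 2326 HFD and 2749 HFD_HDCA cells. All 8 pericentral and all 8 periportal check genes, which the order did not use, were higher at their stated end in every library. A bin is a rank within its library and not a measured place. Bin 1 held the deepest cells in every library, and bin 5 came next in HFD and HFD_HDCA but not in ND. Median depth from bin 1 to bin 5 ran 4490, 1455, 871.5, 801 and 1132 UMIs in ND, 2924, 864, 756, 830 and 1865 in HFD, and 4782, 851, 915.5, 1027 and 2038 in HFD_HDCA. The most periportal bin was made mainly of cluster 7 in ND (81.1%), cluster 5 in HFD (80.9%) and cluster 6 in HFD_HDCA (80%), and the most pericentral bin of clusters 12 (37.2%), 10 (53.1%) and 4 (67.6%). Because depth and position moved together, the profiles of Hamp and Hamp2 are given also for the deep cells, which were ordered among themselves (693, 824 and 1020 cells).

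In ND, Hamp was highest in bin 4 and lowest in bin 5, and flatter among deep cells. Its CPM from bin 1 to bin 5 was 6443, 6181, 6996, 8118 and 4526, a span of 1.79-fold. In deep cells it was 6332, 6875, 6478, 6474 and 5799, a span of 1.19-fold. The log2 ratio of bin 1 to bin 5 was 0.51 (0.45 to 0.57) over all depths and 0.13 (0.06 to 0.20) in deep cells, and 1.12 with bin borders set over the 3 libraries together.

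In HFD, Hamp was lowest at the periportal end. It was 1377, 2090, 4269, 3805 and 2248 CPM from bin 1 to bin 5, and 1291, 1449, 1787, 3157 and 1769 CPM in deep cells. The ratio of bin 1 to bin 5 was -0.71 (-0.80 to -0.61) and -0.45 (-0.61 to -0.30) in log2 units. The peak lay in bin 3 over all depths and in bin 4 in deep cells, so the most periportal bin was the lowest at both depths. In deep cells bin 4 stood above the other bins, and bin 5 was close to bin 3. Neither copy was 2-fold apart between the end bins of HFD, where 3.3% of genes were that much higher and 4.82% lower periportally (5.01% and 7.27% among deep cells).

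In HFD_HDCA, the low end was pericentral. Hamp was 3728, 4855, 5091, 4344 and 1719 CPM, and 3493, 4027, 3977, 3409 and 946 CPM in deep cells. The log2 ratio of bin 1 to bin 5 was 1.12 (1.05 to 1.18), and 1.88 in deep cells. In this library 2.46% of genes with a count of at least 100 in the end bins were at least 2-fold higher in the periportal bin (3.76% among deep cells), and Hamp was among them. The shares lower there were 3.74% and 5.52%. The Hamp ratio was at least 2-fold in 6 of 10 alternatives and not in the others, which gave 0.91 thinned to 500 UMIs, 0.89 with common borders, 0.69 with 3 bins and 0.31 in cells with fewer than 1000 UMIs. The periportal to pericentral ratio of Hamp therefore had the opposite sign in HFD to that in ND and HFD_HDCA, at each of 10 alternative settings of the bins, the landmarks, the cells and the depth.

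Seen as a comparison of diets, the Hamp difference depended on position. HFD was lower than ND in every bin. The log2 ratio was -2.23 (-2.30 to -2.15) in bin 1, -1.56 in bin 2, -0.71 in bin 3, -1.09 in bin 4 and -1.01 (-1.09 to -0.93) in bin 5. Over 10 alternatives it ran from -2.34 to -1.25 in bin 1, and from -1.71 to -0.27 in bin 5, where 7 of the 10 were at least 2-fold. HFD_HDCA was above HFD in bin 1, by 1.44 (1.36 to 1.52), and in bin 2, by 1.22. It was 0.25 above in bin 3 and 0.19 in bin 4. In bin 5 it was below HFD, at -0.39 (-0.47 to -0.30).

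In the deep cells the HFD_HDCA to HFD ratio ran 1.43, 1.47, 1.15, 0.11 and -0.90 (-1.04 to -0.76) from bin 1 to bin 5. The periportal bins were thus at least 2-fold higher with HDCA and the most pericentral bin was 1.87-fold lower. That pericentral value turned to 0.26 in cells with fewer than 1000 UMIs and to 0.11 in cells thinned to 500 UMIs, whereas the periportal value stayed between 1.14 and 1.66 under all 10 alternatives. The ratio differed between bins 1 and 5 by 1.82 in log2 units, and by 2.34 in deep cells. Among 2849 genes counted in both bins, 0.948% had a difference of at least 1 in that direction, and among 1741 in deep cells 1.15%. The difference between bins was not tested, for want of replicates.

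**Figure D2:**
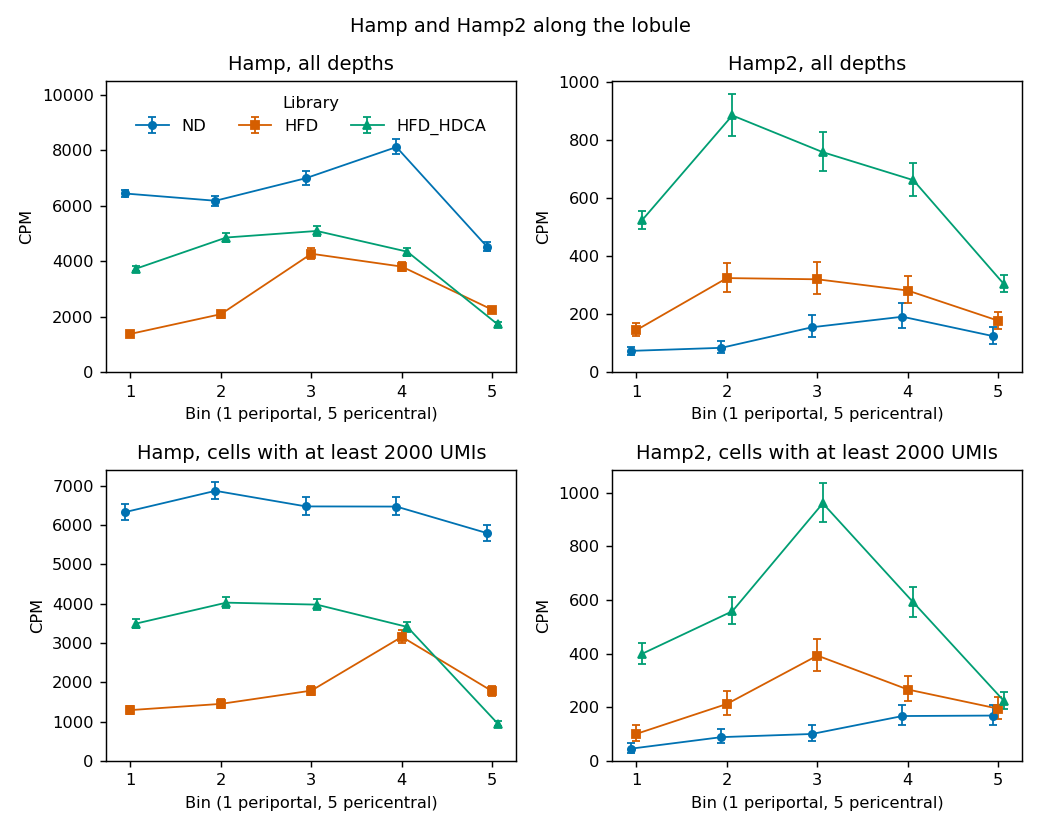
CPM of Hamp (left) and Hamp2 (right) in 5 bins from periportal (1) to pericentral (5) in the 3 libraries, for all ordered hepatocyte-like cells (top) and those with at least 2000 UMIs (bottom), with 95% Poisson counting intervals. Hamp is low periportally in HFD, at 1377 CPM, and low pericentrally in HFD_HDCA, at 1719 CPM, and Hamp2 in HFD_HDCA peaks between the ends.

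Counts per cell showed the same positions. Among deep cells thinned to 2000 UMIs, the median Hamp count in bin 1 was 9 in ND, 1 in HFD and 4 in HFD_HDCA. In bin 5 it was 6, 2 and 1. Cells with a Hamp UMI made up 95% of bin 1 in ND, 64.9% (57 to 72.1%) in HFD and 87.3% (81.9 to 91.5%) in HFD_HDCA. In bin 5 they made up 84.1%, 70.1% (62.5 to 77%) and 54.4% (47.3 to 61.4%). The pericentral bin of HFD_HDCA had the lowest share of the 15 combinations of library and bin. With all ordered cells thinned to 500 UMIs, the share was 34.9% (30.6 to 39.5%) in bin 1 of HFD and 45.2% (41 to 49.4%) in bin 5 of HFD_HDCA. The endothelial-like intervals at that depth, 4.33 to 48.1% and 21.5 to 55.1%, cover these values, so neither share can be told from background.

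**Figure D3:**
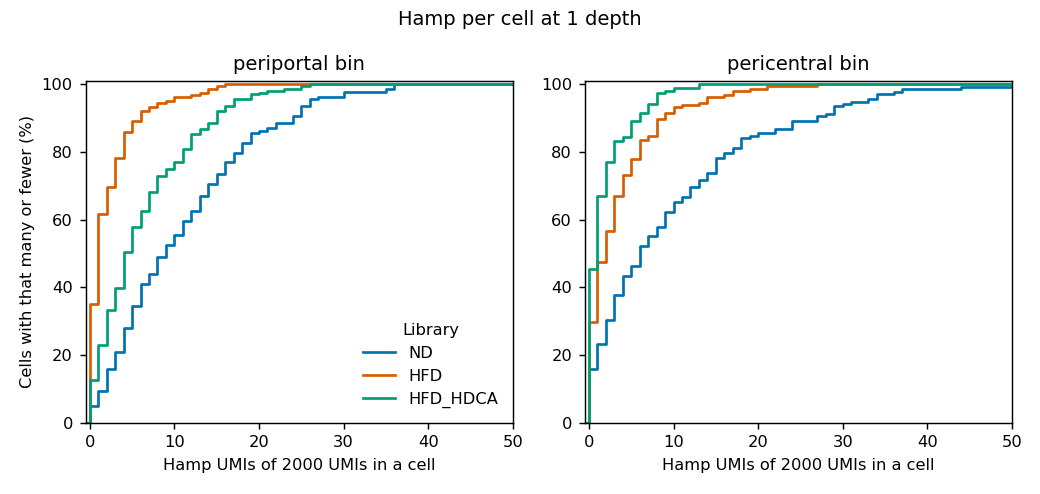
Cumulative share of deep hepatocyte-like cells (vertical, %) holding at most a given number of Hamp UMIs among 2000 (horizontal) in the periportal bin (left) and the pericentral bin (right) of the 3 libraries. The HFD curve lies to the left of HFD_HDCA periportally, with medians of 1 and 4 UMIs, and to its right pericentrally, with medians of 2 and 1.

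Over all depths and in deep cells, Hamp2 along the lobule was pericentral in ND and mid-lobular in the high fat libraries. In ND it was 73.1, 83.6, 154.4, 190.7 and 124 CPM from bin 1 to bin 5, on 62 to 113 UMIs per bin, and 45.2, 88.2, 100, 167 and 169 CPM in deep cells. In HFD it was 144.7, 324, 319.6, 281 and 177 CPM, and 100.4, 212, 392, 266 and 194 CPM in deep cells. In HFD_HDCA it was 522, 884, 757, 661 and 304 CPM, and 399, 558, 960, 591 and 224 CPM in deep cells. The highest bin over all depths was bin 4 in ND and bin 2 in both high fat libraries, and in deep cells it was bin 5 in ND and bin 3 in the others.

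The log2 ratio of bin 1 to bin 5 for Hamp2 was -0.77 (-1.19 to -0.33) in ND, -0.29 (-0.62 to 0.04) in HFD and 0.78 (0.62 to 0.95) in HFD_HDCA. In deep cells it was -1.88 (-2.55 to -1.28), -0.94 (-1.48 to -0.43) and 0.83 (0.58 to 1.09). Among deep ND cells, 4.83% of genes were at least 2-fold lower in the periportal bin, Hamp2 among them, and 2.29% higher. The ND ratio rested on few UMIs, 30 and 86 in the end bins of deep cells, and was 0.42 in cells thinned to 500 UMIs. HFD_HDCA kept a periportal excess of Hamp2 under all 10 alternatives, from 0.37 to 1.09.

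Between libraries, the Hamp2 ratio of HFD_HDCA to HFD also shrank toward the central vein. That of HFD to ND was highest in bin 2 over all depths. HFD_HDCA against HFD gave 1.85 (1.61 to 2.10) in bin 1, 1.45, 1.24 and 1.23 in bins 2 to 4, and 0.78 (0.51 to 1.05) in bin 5. In deep cells bin 5 stood at 0.20 (-0.16 to 0.58), an interval that includes 0. HFD against ND gave 0.98 (0.63 to 1.35) in bin 1, 1.95 in bin 2, 1.04 in bin 3, 0.55 in bin 4 and 0.51 (0.11 to 0.93) in bin 5. Over all depths Hamp2 was thus higher in HFD than in ND in each of the 5 bins, where Hamp was lower. In deep cells the Hamp2 ratio in bin 5 was 0.20 (-0.23 to 0.64), an interval that includes 0. In cells thinned to 500 UMIs the Hamp2 ratio in bin 1 turned to -0.61, and in the other 9 alternatives it lay between 1.01 and 1.54.

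The Hamp2 share of the pair also varied along the lobule. Over the 5 bins it ran from 1.12% to 2.67% in ND, from 6.87% to 13.4% in HFD and from 12.3% to 15.4% in HFD_HDCA. In deep cells the ranges were 0.709% to 2.83%, 7.22% to 18% and 10.2% to 19.4%. Every ND bin was below every bin of the high fat libraries, and the HFD and HFD_HDCA ranges overlapped.

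**Figure D4:**
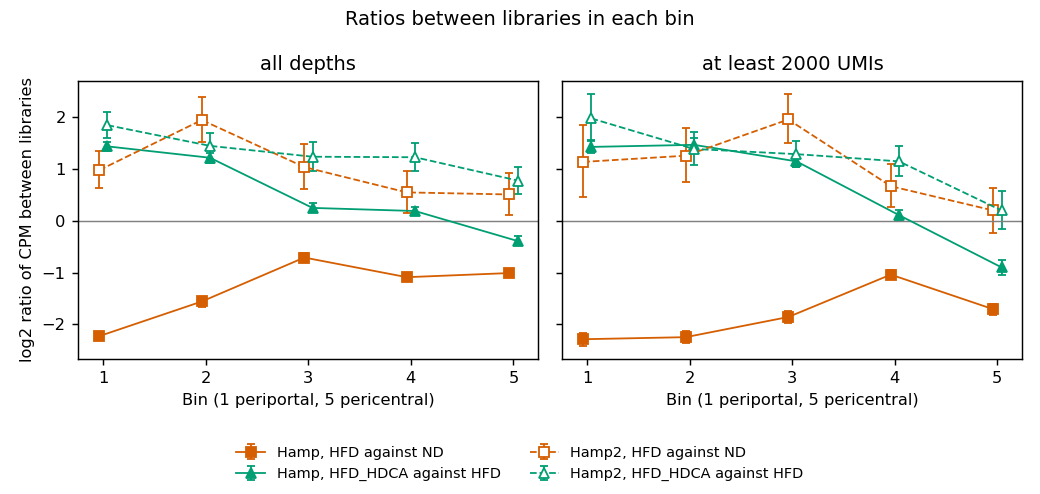
Log2 ratio of CPM between libraries in each bin, from periportal (1) to pericentral (5), for Hamp (filled, solid) and Hamp2 (open, dashed), over all depths (left) and in cells with at least 2000 UMIs (right), with 95% counting intervals. For HFD_HDCA against HFD, Hamp runs from 1.44 to -0.39 over all depths and from 1.43 to -0.90 in deep cells.

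Genes with profiles most like these were sought over the 15 combinations of library and bin, among 3125 genes with at least 500 UMIs that were no landmark. The points share libraries, scaling and depth, so the correlations are descriptions. For Hamp they were Srrm2 (Pearson r of 0.913), Pmpca (0.873), Ndufb2 (0.861), Txnip (0.853) and Tuba4a (0.852). For Hamp2 they included Fdps (0.934), Fgl1 (0.927) and Etnk2 (0.920). Hamp and Hamp2 themselves had an r of -0.098. The 2 sets did not overlap. Lists this short, drawn from 3125 genes, would rarely share a gene, so no conclusion is drawn from that.

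Both transferrin receptors were highest in HFD_HDCA, and neither was 2-fold apart between any libraries. Tfr2 (chromosome 5, 137569840 to 137587481), the transferrin receptor by which hepatocytes sense iron, was at 122 CPM in ND, 144.2 CPM in HFD and 186 CPM in HFD_HDCA. HFD_HDCA was above HFD by a log2 ratio of 0.36 (0.21 to 0.52) and above ND by 0.60 (0.45 to 0.76). Along the lobule Tfr2 had bin 1 to bin 5 ratios of 0.01, -0.23 and -0.29 in ND, HFD and HFD_HDCA, of which the last alone had an interval below 0 (-0.51 to -0.07). The HFD_HDCA ratio was -0.40 (-0.71 to -0.10) in deep cells and turned to 0.88 (0.01 to 1.82) in cells with fewer than 1000 UMIs, on 31 and 18 UMIs.

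Tfrc (chromosome 16, 32608920 to 32632794), the uptake receptor whose mRNA is stabilised when cells are short of iron, was at 34.7, 39.6 and 54.6 CPM in ND, HFD and HFD_HDCA. HFD_HDCA was above ND by 0.65 (0.36 to 0.95), or 1.57-fold, and above HFD by 0.46 (0.18 to 0.76). HFD was not apart from ND beyond counting error, at 0.19 (-0.15 to 0.53). It was higher in the periportal than in the pericentral bin, by 0.97 (0.16 to 1.95), 0.59 (-0.10 to 1.33) and 0.67 (0.24 to 1.13). In deep cells these ratios were 0.91, 0.59 and 0.68.

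Hfe (chromosome 13, 23702034 to 23710854), the protein mutated in hereditary haemochromatosis, was low, at 22.2, 26.3 and 25.2 CPM. Its intervals overlapped in all 3 libraries, and the log2 ratios lay between -0.06 and 0.25. In HFD its level was 19.8 CPM in bin 1 and 41.1 CPM in bin 5, a ratio of -1.04 (-1.89 to -0.25) on 22 and 36 UMIs. In deep cells the ratio was -0.86 (-2.25 to 0.35) on 9 and 17 UMIs, an interval that includes 0.

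Slc40a1 (chromosome 1, 45908068 to 45926523), which encodes ferroportin, was at 135.4 CPM in ND, 116 CPM in HFD and 111 CPM in HFD_HDCA. Both high fat libraries were slightly below ND, at -0.22 (-0.41 to -0.04) and -0.28 (-0.45 to -0.12). For HFD that ratio was 0.01 with cells thinned to 500 UMIs. Over all depths it was periportal in every library, with bin 1 to bin 5 ratios of 0.81 (0.39 to 1.26), 0.59 (0.22 to 0.99) and 0.62 (0.31 to 0.94), and of 0.92, 0.68 and 0.89 in deep cells. Among cells with fewer than 1000 UMIs, on 11 to 18 UMIs per bin, all 3 intervals included 0. Over all depths in ND, Slc40a1 was at 159 CPM in bin 1 and 90.2 CPM in bin 5.

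Kupffer-like cells, the macrophages that recycle iron from red cells, held far more Slc40a1 per UMI. They had 4913 (3961 to 6026), 4552 (3650 to 5608) and 3160 (2547 to 3875) CPM in ND, HFD and HFD_HDCA, from 88 to 92 UMIs in 17 to 25 cells. The HFD_HDCA interval lay below that of ND. Endothelial-like cells had 498, 353 and 288 CPM. Within the hepatocyte-like cells, 10, 6 and 10 of 13 Kupffer cell markers had a UMI, their sum was 4.58, 3.25 and 7.35 CPM, and the defining marker Clec4f was at 0 in HFD and HFD_HDCA. Their part in the Slc40a1 level was not tested.

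Transferrin and ferritin, the carrier and the store of iron, made up the other abundant transcripts. Trf (chromosome 9, 103204001 to 103230444) was at 7146 CPM in ND, 5646 CPM in HFD and 6664 CPM in HFD_HDCA. HFD was 1.27-fold lower than ND, at -0.34 (-0.37 to -0.31), and HFD_HDCA was 1.18-fold higher than HFD, at 0.24 (0.21 to 0.26). As for Hamp, HFD_HDCA lay between the others, but the span was far smaller.

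Trf was periportal in all 3 libraries, with a smaller ratio in the high fat ones. In ND it was 9493, 7896, 6056, 4499 and 4661 CPM from bin 1 to bin 5, a ratio of 1.03 (0.97 to 1.08), where 2.07% of genes were at least 2-fold higher in the periportal bin and 3.97% lower. In HFD it was 7712, 5733, 4393, 4844 and 4623 CPM, a ratio of 0.74 (0.68 to 0.79). In HFD_HDCA it was 8204, 5827, 5542, 5723 and 5907 CPM, a ratio of 0.47 (0.44 to 0.51). The ratios in deep cells, 0.88, 0.81 and 0.46, kept that order. In cells with fewer than 1000 UMIs they were 0.51, 0.29 and, for HFD_HDCA, within -0.17 to 0.16, so that no gradient of Trf was detectable there in that library. HFD_HDCA was below ND in bin 1, at -0.21 (-0.24 to -0.18), and above it in bin 5, at 0.34 (0.28 to 0.40).

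Fth1 (chromosome 19, 9980598 to 9985098) encodes the ferritin heavy chain, which oxidises iron for storage. It was at 2931 CPM in ND, 2279 CPM in HFD and 2752 CPM in HFD_HDCA, with a log2 ratio to ND of -0.36 (-0.40 to -0.32) in HFD. HFD_HDCA stood 0.27 (0.23 to 0.31) above HFD. Ftl1 (chromosome 7, 45457944 to 45459884), the light chain, was at 2156, 1560 and 1904 CPM, with ratios of -0.47 (-0.52 to -0.42) and 0.29 (0.24 to 0.33). Both chains, then, were lowest in HFD, by 1.29-fold and 1.38-fold against ND. Ftl1 has many near copies in the genome. The listed copy Ftl1-ps1 had 189, 112 and 132 UMIs, so the count of Ftl1 may miss reads that fit both.

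The ferritin chains were higher pericentrally in ND, and their ratios were nearer 0 or of the other sign in the high fat libraries. Fth1 in ND was 2668 CPM in bin 1 and 3436 CPM in bin 5, a ratio of -0.37 (-0.44 to -0.29), against -0.05 (-0.14 to 0.03) in HFD and -0.07 (-0.13 to -0.01) in HFD_HDCA. Ftl1 in ND was 1974 and 2517 CPM, a ratio of -0.35 (-0.44 to -0.26). In HFD its ratio was 0.11 (0.00 to 0.22), and in HFD_HDCA 0.33 (0.26 to 0.41), which is the periportal direction. In deep cells the Fth1 ratios were -0.50, -0.02 and -0.04, and the Ftl1 ratios -0.27, 0.18 and 0.49. In cells with fewer than 1000 UMIs the Ftl1 ratio in HFD_HDCA was -0.04 (-0.27 to 0.20). Neither difference between libraries could be tested with 1 library each.

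Smad7 (chromosome 18, 75367529 to 75395935), a target and inhibitor of BMP-SMAD signalling, was near the detection limit. It was at 19, 18.4 and 16.1 CPM, from 79, 68 and 92 UMIs, and no ratio between libraries excluded 0. By bin it rested on 4 to 41 UMIs. The interval of its ND ratio of bin 1 to bin 5, 1.60 (0.38 to 3.42), excluded 0 with 41 and 5 UMIs, and that of deep cells, 0.57 (-0.78 to 2.17), did not. Endothelial-like cells had 197 (119 to 308), 176 (21.4 to 637) and 320.3 (154 to 589) CPM of Smad7, above the hepatocyte-like level in ND and HFD_HDCA.

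**Figure D5:**
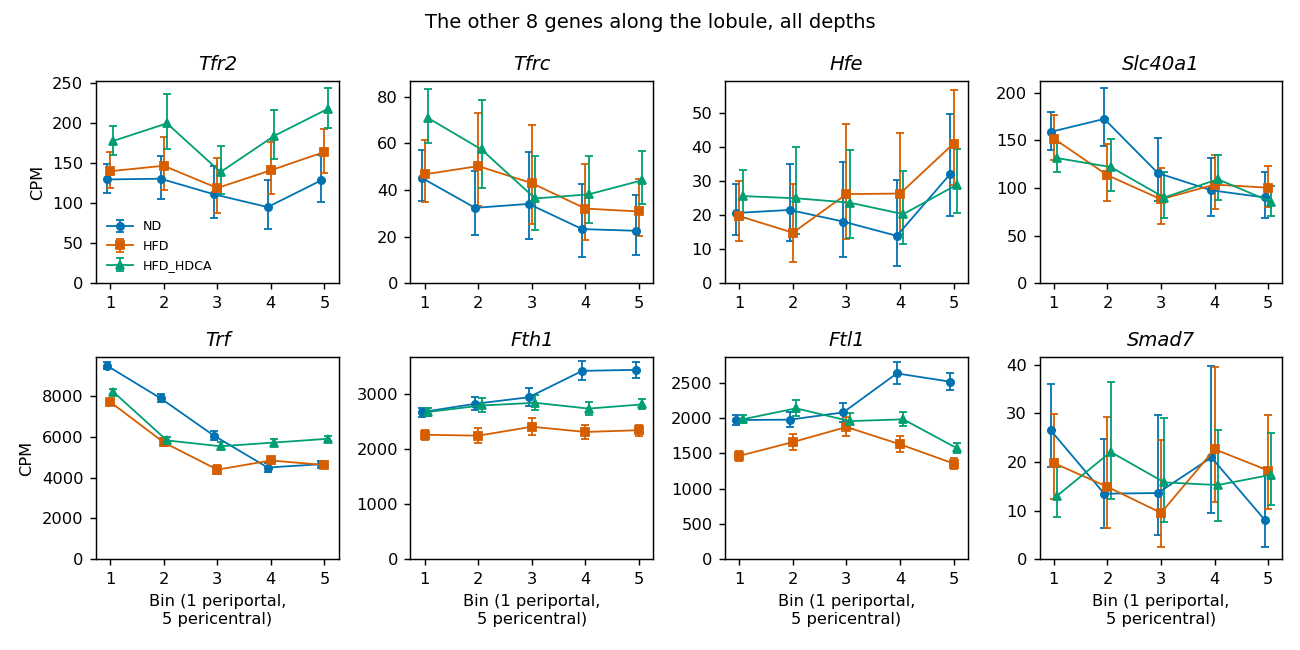
CPM of the other 8 genes in 5 bins from periportal (1) to pericentral (5) in the 3 libraries, all depths, with 95% Poisson counting intervals and a vertical axis from 0 in each panel. Trf falls from bin 1 to bin 5 in every library (9493 to 4661 CPM in ND), Slc40a1 is also lower in bin 5 than in bin 1, and Fth1 and Ftl1 run upward in ND.

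The rest of the pathway was described by 4 lists. Of 28 genes that carry BMP-SMAD or cytokine signals to hepcidin, 20 were measured. For HFD against ND, 1 was at least 2-fold higher and 3 were at least 2-fold lower, with a median log2 ratio of -0.05, where 2.97% of all measured genes were that much higher and 2.74% lower. The lower ones were Id3, Id2 and Atoh8, each known as a BMP target, as is Smad7, whose ratio was -0.05 (-0.54 to 0.44). Id3 was at 104.1, 26.6 and 30.3 CPM in ND, HFD and HFD_HDCA, a ratio of -1.96 (-2.30 to -1.65) for HFD against ND. Id2 was at 790.2, 326 and 322 CPM, a ratio of -1.28 (-1.38 to -1.18). Atoh8 was at 12.8, 6.23 and 7.17 CPM, a ratio of -1.02 (-1.81 to -0.30) on 53 and 23 UMIs.

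Id2 and Id3 were lower in HFD than in ND, as Hamp was. For HFD_HDCA against HFD they stood at -0.01 and 0.18, and 0 of the 20 genes were at least 2-fold apart. Against ND, 0 were at least 2-fold higher and 2 lower, Id3 at -1.78 and Id2 at -1.29, beside 2.49% of measured genes lower. Il6ra, the IL-6 receptor through which inflammation raises hepcidin, was the 1 gene at least 2-fold higher in HFD than in ND. It was at 32.3, 80.8 and 42.9 CPM, with a ratio to ND of 1.32 (1.02 to 1.63) in HFD. Of the 20 genes, 8 were above 0 in that comparison. From HFD to HFD_HDCA the ratio was -0.91 (-1.16 to -0.67). Hjv, the BMP co-receptor hemojuvelin, was at 56.9, 43.4 and 34.5 CPM, a log2 ratio of -0.72 for HFD_HDCA against ND.

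Several known controls of hepcidin could not be followed in hepatocyte-like cells. Bmp6 had 2, 0 and 1 UMIs and Gdf2 and Erfe had 0. Id1, at 49, 18 and 18 UMIs, and Socs3, at 26, 36 and 30, stayed below the count minimum. Bmp6, which liver endothelium makes, was at 187 (111 to 295), 265 (54.6 to 773) and 96.1 (19.8 to 281) CPM in endothelial-like cells, from 18, 3 and 3 UMIs. Bmp2 in those cells was at 1495 (1261 to 1760), 2646 (1785 to 3777) and 2562 (2032 to 3189) CPM, higher in both high fat libraries than in ND beyond counting error. Bmp2 is also 1 of the 16 markers by which those cells were named.

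Of 19 genes of iron uptake, storage, release and sensing, 16 were measured. For HFD against ND, 0 were at least 2-fold higher and 1 was lower, with a median of 0.13. For a list of 16, that is near the 2.97% and 2.74% of all measured genes. The lower gene was Steap3, an endosomal ferrireductase, at 15.2, 6.51 and 6.47 CPM, a ratio of -1.20 (-1.97 to -0.52) on 63 and 24 UMIs. Slc39a14, the importer of iron not bound to transferrin, was at 105.3, 199.5 and 160.4 CPM, with ratios of 0.92 (0.75 to 1.10) and -0.32 (-0.46 to -0.17). Ncoa4, which directs ferritin to breakdown, was at 95.4, 143.7 and 143 CPM, a ratio of 0.59 (0.40 to 0.78) for HFD against ND. Between HFD_HDCA and HFD, 0 were 2-fold apart, the widest being Steap2 at 0.89 (0.29 to 1.55). Against ND, Steap3 at -1.22 was the 1 gene that far apart.

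Haem scavenging and recycling had 6 of 9 genes measured and iron-sulfur cluster assembly 12 of 13. Neither list had a gene at least 2-fold apart in any of the comparisons. The median ratios were -0.20, 0.07 and -0.03 for haem and -0.02, 0.13 and 0.07 for iron-sulfur assembly. Hp, which binds free haemoglobin, was at 705, 947 and 982 CPM, a ratio of 0.43 (0.36 to 0.50) for HFD against ND. Blvrb, a biliverdin reductase, was at 106.3, 85.7 and 149.7 CPM, and its ratio of HFD_HDCA to HFD was 0.80. Fdx1, an electron donor listed here with cluster assembly, was at 308.5, 410.4 and 257 CPM. Its ratio was -0.67 (-0.78 to -0.57) for HFD_HDCA against HFD.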

How the data were processed

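The authors' deposited matrices hold UMI counts per gene and barcode, made with Cell Ranger 5.0.0, per the file headers, on mm10 per the submitters' processing notes. How barcodes were chosen and reads matching several genes were treated is not given in the sources used here. Retained barcodes were clustered together (2000 variable genes, 30 components, 15 neighbours, Leiden resolution 1, seed 0, 16 clusters) with scanpy 1.11.5, leidenalg 0.10.2 and scipy 1.17.1 under Python 3.11.15. Clusters led by at least 3 markers of another class took its name, and other clusters with hepatocyte markers were called hepatocyte-like. No doublet caller was run.

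Within each library, or each bin of it, counts were added over the hepatocyte-like cells and scaled to 1000000 nuclear-encoded UMIs (CPM). Log2 ratios had 0.5 added to each count and exact conditional binomial intervals. Levels have exact Poisson and shares exact binomial intervals. For a count of 0 the limit given is that of 3 counts. The lobule score was log2((pericentral + 1)/(periportal + 1)) landmark UMIs. Thinning drew 500 or 2000 UMIs per cell. Calculations were tested on simulated data.

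The members, lists, landmarks and motifs were chosen with earlier results of these data known. Named genes are the 10 members, the genes with the widest ratios in each list, of which the text gives some, and the 5 most like Hamp and Hamp2 in log2(CPM + 10), some of which are not reported here. Motifs were searched in the 250 bases before the start and not in the 300 planned, a change made after the reference was seen, to leave out transcribed bases. Alternatives changed scaling, count minimum, cell filters, depth, bins and landmarks. GENCODE M21 (GRCm38) gave positions.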

Additional observations from a re-analysis of the deposited data

Results flagged for a closer look

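Hamp in HFD_HDCA against HFD had opposite signs at the ends of the lobule, with a log2 ratio of 1.44 in the periportal bin and -0.39 in the pericentral bin, and each counting interval excluded 0. Trf in HFD_HDCA against ND did so on a smaller scale, at -0.21 periportally and 0.34 pericentrally. With 1 library per diet, neither difference between the ends was tested.

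Barcodes above 50% mitochondrial counts, 2977 in ND, 3354 in HFD and 1863 in HFD_HDCA, entered no comparison and held the same genes. Hamp there was at 5957, 3272 and 4642 CPM in ND, HFD and HFD_HDCA, the order of the retained cells over a narrower span. Hamp2 was at 100.5, 197.5 and 548 CPM, close to its levels in retained cells. Tfr2 was at 125, 140.1 and 150.5 CPM, Tfrc at 40.5, 53.1 and 77.6 CPM, and Hfe at 29.96, 17 and 23.5 CPM. Slc40a1 was at 89.9, 112.5 and 115 CPM, which is lowest and not highest in ND. Trf was at 5751, 4004 and 5265 CPM, Fth1 at 1683, 1370 and 1947 CPM, and Ftl1 at 1436, 1206 and 1594 CPM. Smad7 was at 14.1 CPM in ND and 21.2 CPM in HFD, and had 2 UMIs in HFD_HDCA, under the limit of 3 counts.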

How the results depend on the processing

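Hamp, with log2 ratios of -1.34, 0.55 and -0.80 for HFD to ND, HFD_HDCA to HFD and HFD_HDCA to ND, kept its direction under all 9 alternatives, as did Hamp2. Median-of-ratios scaling gave Hamp -1.31 and 0.50 for the first pair of comparisons, and mitochondrial counts in the total gave 0.59 and -0.75 for the last pair. Equal weight per cell gave -0.97, 0.50 and -0.47, thinning to 500 UMIs -1.06, 0.59 and -0.47, at least 500 genes -1.55, 0.66 and -0.89, and cells without a UMI of another class -1.21, 0.48 and -0.72. At most 20% mitochondrial counts gave -1.41 against ND for HFD and -0.84 for HFD_HDCA. At least 2000 UMIs, a setting added after seeing the data, gave -1.76, 0.73 and -1.02. For Hamp2, HFD_HDCA against HFD was 1.59 with equal weights, 1.55 thinned and 1.19 in deep cells, and HFD_HDCA against ND was 2.54 thinned and 2.21 without cells with a UMI of another class.

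Members at least 2-fold higher in HFD than in ND went from 1 to 0 with equal weights, with thinning and without cells with a UMI of another class, and those lower from 1 to 0 with equal weights. In deep cells 1 member was at least 2-fold lower in HFD_HDCA than in ND. Measured genes at least 2-fold higher and lower numbered 228 and 210 in the first comparison, 108 and 111 in the second, and 212 and 191 in the last. With a count of at least 20 they were 393 and 683, 440 and 271, and 416 and 512. With at least 500 they were 132 and 50, 24 and 45, and 117 and 68. Thinning gave 106 lower in the first, then 53 and 70, and 137 and 107. Equal weights gave 171 higher in HFD_HDCA than in HFD.

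The periportal to pericentral ratio of Hamp in ND was 0.18 with 3 bins, 1.12 with borders over the 3 libraries, 0.62 without Cyp2e1 and Cyp2f2, 0.59 with 6 landmarks, 0.65 with at least 10 landmark UMIs, 0.12 within depth classes, 0.13 in deep cells and 0.17 in cells with fewer than 1000 UMIs. In HFD those settings gave -0.90, -0.88, -0.56, -0.59, -0.56, -0.60, -0.45 and -0.57. In HFD_HDCA they gave 0.69, 0.89, 1.31 without both genes, 1.31 with 10 landmark UMIs, 1.25 within depth classes, 1.88 in deep and 0.31 in shallow cells, and thinning gave 0.91. For Hamp2 the ratio in ND was 0.42 thinned, -1.55 with 10 landmark UMIs, -1.46 within depth classes and -1.88 in deep cells, in HFD -1.37 thinned and -0.94 in deep cells, and in HFD_HDCA 1.09 thinned, 0.60 with 3 bins and 0.37 with borders over the libraries. The Hamp ratio of HFD_HDCA to HFD in the periportal bin was 1.66 thinned, 1.54 with 10 landmark UMIs and 1.14 in cells with fewer than 1000 UMIs. In the pericentral bin it was 0.11 thinned, -0.18 with 3 bins, -0.29 with borders over the libraries, -0.90 in deep cells and 0.26 in cells with fewer than 1000 UMIs. The cause of these shifts was not tested.

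Shares of cells with a Hamp UMI in ND, HFD and HFD_HDCA were 83.7%, 55.8% and 72.7% thinned to 500 UMIs and 92.2%, 72% and 80.7% thinned to 2000. They were 94.6% and 77.1% in ND and HFD with at most 20% mitochondrial counts, and 95.2% and 78.7% with at least 500 genes. For Hamp2 they were 3.97%, 6.9% and 21.5% at 500 UMIs, 12.5%, 19.9% and 45.8% with at least 500 genes, and 19.2% and 36.9% in HFD and HFD_HDCA at 2000 UMIs. No paired analysis was possible because each group is 1 library and no replicate could be left out. Depth limits Smad7, Hfe and Tfrc, with 68 to 312 UMIs per library, and Hamp2 in ND.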

Other observations

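Red cell transcripts were uneven among the hepatocyte-like cells. The 4 haemoglobin genes Hba-a1, Hba-a2, Hbb-bs and Hbb-bt had 0 UMIs in ND. In HFD, Hbb-bs had 452 UMIs in 10 cells and Hba-a1 133 UMIs in 4 cells, and in HFD_HDCA they had 97 UMIs in 6 cells and 28 in 2 cells. Alas2, which starts haem synthesis in red cell precursors, was by contrast spread over 333, 247 and 299 cells of ND, HFD and HFD_HDCA, at 93.7, 73.5 and 58.9 CPM.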
